A study of Mus musculus with 17 samples.

Results

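Of 14510 Sirt6 peaks called in wild-type (WT) mouse embryonic stem (ES) cells, 1208 (8.33%) carried a peak of acetylated histone H3 lysine 9 (H3K9ac) in untreated Sirt6 knockout (KO) cells and none in untreated WT cells. They were chosen by overlap of deposited peak lists: at least 1 bp shared with an untreated KO H3K9ac peak, and no shared base with an untreated WT H3K9ac peak. They are called KO-only sites here. Of the other Sirt6 peaks, 141 overlapped untreated H3K9ac in both genotypes (shared sites), 9 overlapped it in WT alone, and 13152 overlapped it in neither list (sites without H3K9ac). The choice used the WT Sirt6 list and the 2 untreated H3K9ac lists, so values from those lists describe the sites and lend no support to the choice itself.

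The cells were ES cells of the 129 mouse strain, Sirt6 KO or WT, grown on irradiated feeder fibroblasts that were depleted by brief plating before use. H3K9ac and H3K56ac were mapped by chromatin immunoprecipitation and sequencing (ChIP-seq) in 4 groups: KO after retinoic acid (RA), WT after RA, untreated KO and untreated WT. RA, from a 0.01 M stock diluted 10000-fold, was given for 2 days in medium without leukaemia inhibitory factor, and cells were collected a day after it had been withdrawn. Sirt6 was mapped in untreated WT cells and in untreated KO cells, at a lower and a higher antibody amount, while 5-hydroxymethylcytosine (5hmC) was mapped by CMS-IP in KO and WT cells, each with its input. Every group held 1 library, and the labels do not say whether a genotype came from more than 1 ES line. There is therefore no error between replicates and no test between conditions. Intervals in parentheses are 95% intervals over peaks (Wilson for a share, Newcombe for a difference of shares, order statistics for a median) and cover counting error only, since neighbouring peaks of 1 library are not replicates.

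Sirt6 is a NAD-dependent deacetylase that removes acetyl groups from H3K9 and H3K56. Both marks are found at active promoters and enhancers, where acetylation loosens the contact between histones and DNA. RA drives ES cells out of self-renewal. CMS-IP captures 5hmC, the oxidation product of 5-methylcytosine made by TET enzymes, after bisulfite turns it into cytosine 5-methylenesulfonate.

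Depth was modest and differed between libraries. The 8 acetylation libraries held 5782181 to 10250030 tags after duplicates were removed, and were called without a control library. The WT Sirt6 library held 2008232 tags. Both Sirt6 ChIP libraries from KO cells, with 40006795 and 48956556 tags, gave 0 peaks, so the list of 14510 has no counterpart in cells lacking the protein. Their whole-cell extract control held 5113859 tags, and that of the WT Sirt6 library 6251712. The part of ChIP and control depth in the absence of KO peaks was not tested. The pair of lists that chose the sites held 3593 peaks in untreated KO cells and 2789 in untreated WT cells. The KO library had 7217855 tags and a modelled fragment of 212 bp, and the WT library 7719553 tags and 155 bp. The lowest −log10 q kept was 2.55 in the KO list and 3.74 in the WT list. At 34 of the 1208 KO-only sites (2.81%) the strongest KO H3K9ac peak was below the lowest −log10 q of the WT list. The part of fragment length and depth in the choice of sites was not tested.

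KO H3K9ac at these sites was mostly weak. Untreated KO H3K9ac overlapped 9.30% of all Sirt6 peaks and untreated WT H3K9ac 1.03%. The KO-only sites held 1202 KO H3K9ac peaks, whose fold enrichment over the local background, the peak caller's value as the authors deposited it, had a median of 5.66 (5.60 to 5.71) and ran from 2.77 to 30.6. Peaks elsewhere in the KO list had a median of 10.4. The −log10 q of the site's strongest KO H3K9ac peak was under 10 at 1038 sites (85.9%). With 10 required in the KO list alone, 170 sites would qualify. With 10 required of H3K9ac peaks in both lists, 175 would qualify. With the KO list cut to its 2789 strongest peaks, the length of the WT list, 547 would qualify.

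The acetylation lay within the Sirt6 peaks and close to their summits. The median distance between the Sirt6 and KO H3K9ac summits was 74 bp (68 to 78), and 747 sites (61.8%) had summits within 100 bp of each other. At shared sites the same median was 9 bp (7 to 10). The H3K9ac summit lay inside the Sirt6 peak at 1146 KO-only sites (94.9%) and the whole H3K9ac peak did at 854 (70.7%). It lay at the higher coordinate of the Sirt6 summit at 603 sites and at the lower at 602. Because overlap was required, these distances describe the sites and were not tested.

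With an overlap of 50% of the shorter peak in place of 1 bp, 1164 sites would qualify. The 5 least overlapped sites shared 2, 4, 5, 5 and 10 bp with KO H3K9ac peaks of 4.53- to 6.23-fold, the first of them on chromosome 5 from 110792313 to 110792532 (mm9, the build of all coordinates). Just outside, the 5 nearest misses had a KO H3K9ac peak of 4.70- to 5.93-fold at 2, 6, 9, 12 and 13 bp. The WT criterion left no such fringe: the 5 smallest overlaps by a WT H3K9ac peak were 78, 141, 151, 155 and 155 bp. Among the KO-only sites, 25 had a WT H3K9ac peak within 10000 bp, and the median gap to the nearest was 661573 bp (619455 to 714944).

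KO-only sites were among the longer Sirt6 peaks and those of higher fold enrichment. Their median Sirt6 fold enrichment was 10.96 (10.6 to 11.3), against 5.06 (4.29 to 6.94) at shared sites and 7.72 (7.57 to 7.91) at sites without H3K9ac. Their median length was 577 bp (559 to 594), against 281 bp (259 to 298) at shared sites and 373 bp (368 to 378) at sites without H3K9ac. Above the median fold of all Sirt6 peaks lay 942 of them (78.0%). Among the KO-only sites themselves the Sirt6 fold spread from 2.54 to 29.7. By other measures of strength the shared sites stood higher. Median Sirt6 pileup was 14 at KO-only sites, 71 at shared sites and 9 at sites without H3K9ac. Median Sirt6 −log10 q was 15.8, 24.5 and 8.92 in the same order.

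When the 14510 Sirt6 peaks were ranked by fold enrichment and cut into 10 groups of 1451, the share that were KO-only sites was 2.21% in the lowest group (32 peaks; 1.57 to 3.10) and 24.8% in the highest (360 peaks; 22.7 to 27.1). The next highest groups held 14.0%, 12.1% and 9.72%, and the 3 lowest held 2.21% to 2.27%. A longer peak has more bases that can overlap, and length moved with fold. Among Sirt6 peaks of 330 to 446 bp, 60 of 467 with high fold (12.8%; 10.1 to 16.2) were KO-only sites, against 7 of 319 with low fold (2.19%; 1.07 to 4.46), high and low being the top and bottom of 5 equal groups by fold. Among the longest peaks, of 618 bp and above, the shares were 22.5% (340 of 1514) at high fold and 6.06% (2 of 33; 1.68 to 19.6) at low fold. Over the 1208 sites, Spearman's rho was −0.10 between KO H3K9ac fold and Sirt6 fold and 0.40 between KO H3K9ac pileup and Sirt6 pileup, across sites that share their 2 libraries.

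**Figure D1:**
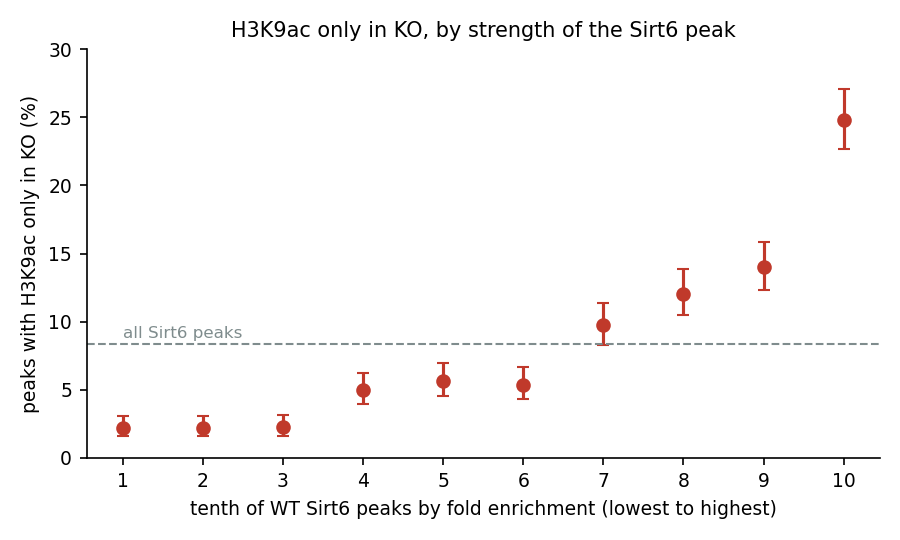
Share of Sirt6 peaks that were KO-only sites (y axis, percent, with 95% Wilson intervals) in 10 groups of 1451 peaks ordered by Sirt6 fold enrichment (x axis, lowest to highest). The share was 2.21% in the lowest group and 24.8% in the highest.

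The strongest Sirt6 peaks among the KO-only sites had ordinary KO H3K9ac. The 10 with the highest Sirt6 fold ran from 22.7- to 29.7-fold, and 9 of them had KO H3K9ac of 4.68- to 8.94-fold. The first was on chromosome 8 from 19784501 to 19785638, at 29.7-fold for Sirt6 and 8.94-fold for KO H3K9ac, and was called in all 6 of the acetylation lists that the choice did not use. The second, on chromosome 8 from 125091873 to 125092872, had 28.8-fold Sirt6 and 5.88-fold KO H3K9ac, and was called in none of the 6. The exception was on chromosome 6 from 62659827 to 62660106, with 23.4-fold Sirt6 and 25.7-fold KO H3K9ac, and it was called in all 6. Of these 10 sites, 4 were called in no other list.

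The 6 acetylation lists outside the choice held few of the KO-only sites, but more than of the other sites that lacked H3K9ac. The largest share was in untreated KO H3K56ac: 223 sites (18.5%; 16.4 to 20.7), against 221 sites without H3K9ac (1.68%; 1.47 to 1.91), a difference of 16.8 points (14.7 to 19.1). This list overlapped 4.03% of all Sirt6 peaks. The KO H3K56ac and KO H3K9ac libraries came from cells with the same labels, and the labels do not say whether the chromatin was shared. In untreated WT H3K56ac, which overlapped 2.20% of all Sirt6 peaks, there were 101 KO-only sites (8.36%; 6.93 to 10.1), against 70 sites without H3K9ac (0.532%).

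The 4 lists after RA held between 37 and 99 KO-only sites. The KO RA H3K9ac list, overlapping 1.89% of all Sirt6 peaks, held 82 KO-only sites (6.79%; 5.50 to 8.35), against 44 sites without H3K9ac (0.335%). The WT RA H3K9ac list, overlapping 1.25%, held 37 (3.06%; 2.23 to 4.19), against 2 (0.0152%). The untreated H3K9ac shares of these sites are fixed by the choice, so they give no comparison with RA. The KO RA H3K56ac list, overlapping 1.84%, held 99 (8.20%; 6.78 to 9.88), against 28 (0.213%). The WT RA H3K56ac list, overlapping 1.71%, held 80 (6.62%; 5.35 to 8.17), against 27 (0.205%). Every one of the 6 differences had an interval above 0, the smallest being 3.05 points (2.21 to 4.18) for WT RA H3K9ac. The choice favours such differences, since KO-only sites hold an untreated H3K9ac call and the sites compared hold none. Each of the 6 lists overlapped 47.7% to 56.2% of all untreated KO H3K9ac peaks. The differences therefore describe the sets and lend no support to the choice. At shared sites, 139 or 140 of the 141 were called in each of the 6 lists.

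**Figure D2:**
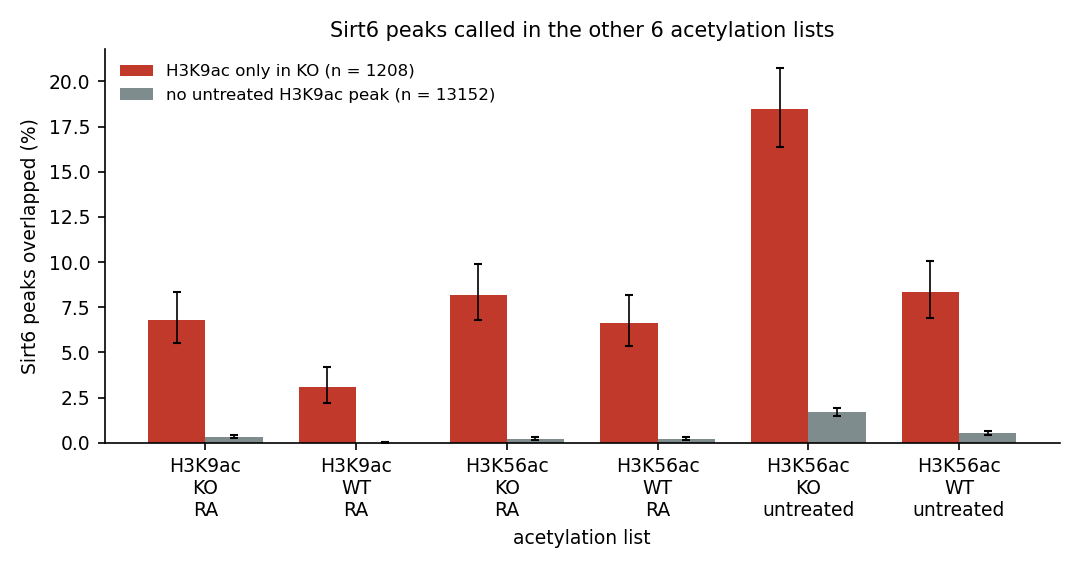
Share of sites (percent, with 95% Wilson intervals) called in each of the 6 acetylation lists that were not used to choose them, for KO-only sites and sites without H3K9ac. KO-only sites lay between 3.06% and 18.5%, above the sites without H3K9ac (0.0152% to 1.68%). Shares of the shared sites, given in the text, were far higher.

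The untreated KO and WT H3K56ac lists differed at the same sites. Of the KO-only sites, 157 were called for H3K56ac in KO alone, 35 in WT alone, 66 in both and 950 in neither. The KO H3K56ac list was the shorter of the pair, with 2235 peaks against 2750 in the WT list. Its peaks were longer, with a median of 276 bp against 212 bp. The KO library had 5782181 tags and a modelled fragment of 224 bp, and the WT library 7790807 tags and 175 bp. The part of these differences in the counts was not tested. Sites without H3K9ac had the same lean, with 209 in KO alone and 58 in WT alone, so a surplus of KO H3K56ac was a feature of Sirt6 peaks outside the KO-only sites too. After RA the H3K56ac counts at KO-only sites were 53 in KO alone, 34 in WT alone and 46 in both, against 23, 22 and 5 at sites without H3K9ac. H3K9ac after RA was called in KO alone at 49 KO-only sites, in WT alone at 4 and in both at 33, against 43, 1 and 1 of the sites without H3K9ac, which thus leaned the same way. The list sizes after RA were 3147 for KO and 2626 for WT H3K9ac. With 1 library of each kind, genotype and library cannot be told apart.

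Within a genotype the RA and untreated H3K56ac calls shared sites. In KO cells 80 KO-only sites were called in both conditions, 19 after RA alone and 143 in untreated cells alone, against 1, 27 and 220 of the sites without H3K9ac. In WT cells 42 were called in both, 38 after RA alone and 59 in untreated cells alone, against 3, 24 and 67 of the sites without H3K9ac. The KO lists were of like length, with 2239 peaks after RA and 2235 in untreated cells.

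The untreated KO H3K56ac difference was present in each group by Sirt6 fold. The choice favours it in every group, so its recurrence describes the sets and lends no support to the choice. When all Sirt6 peaks were cut into 5 equal groups by Sirt6 fold, numbered 1 to 5 from the lowest, untreated KO H3K56ac covered 26.6% of KO-only sites in group 1 (17 of 64), against 0.545% of sites without H3K9ac, a difference of 26.0 points (16.7 to 37.9). In groups 2, 3 and 4 the KO-only shares were 17.1% (18 of 105), 15% (24 of 160) and 13.3% (42 of 316). The shares of sites without H3K9ac there were 0.610%, 0.989% and 2.41%. In group 5 the KO-only share was 21.7% (122 of 563), against 4.33%, a difference of 17.3 points (14.0 to 21.0). The smallest difference, in group 4, was 10.9 points (7.51 to 15.1). The share of sites without H3K9ac was larger in groups of higher fold, while that of KO-only sites was largest in groups 1 and 5.

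Most KO-only sites were seen in untreated KO H3K9ac and nowhere else. None of the other 6 lists called 905 of them (74.9%; 72.4 to 77.3), 173 were in 1 other list and 55 in 2. At the other end 26, 11 and 11 were in 3, 4 and 5 lists, and 27 (2.24%; 1.54 to 3.23) were in all 6. At least 1 of the 6 lists called 303 sites (25.1%), against 363 sites without H3K9ac (2.76%), and it called 5.62% of all Sirt6 peaks. Of these sites, 292 were in an H3K56ac list, 152 in a list after RA and 141 in a WT list. These groups of lists overlap, and the shares of all Sirt6 peaks in them are not given here. The counts therefore show no preference for a mark, condition or genotype. Both untreated H3K9ac lists were used in the choice, so H3K9ac could enter here only through its lists after RA. The commonest combination was untreated KO H3K56ac alone, at 112 sites, followed by all 6 lists at 27 and untreated WT H3K56ac alone at 24.

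The median KO H3K9ac fold was higher in classes of more lists, but the ranges of the classes overlapped. The intervals of the medians for 0, 1 and 2 lists overlapped too. The median was 5.59 (5.49 to 5.66) at the 905 sites in no other list, where the fold ran from 3.56 to 9.06. It was 5.79 at sites in 1 list, 5.97 in 2, 7.07 in 3, 13.4 in 4 and 19.0 in 5. At the 27 sites in all 6 lists it was 21.6 (15.5 to 25.5), from 4.44 to 30.6. The Sirt6 peaks of these 27 sites were also of another shape: median length 280 bp, against 575 bp at sites in no other list, and a median summit distance of 14 bp (5 to 39), against 78 bp. Their median Sirt6 fold was 11.5, near the 10.6 of the sites in no other list.

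**Figure D3:**
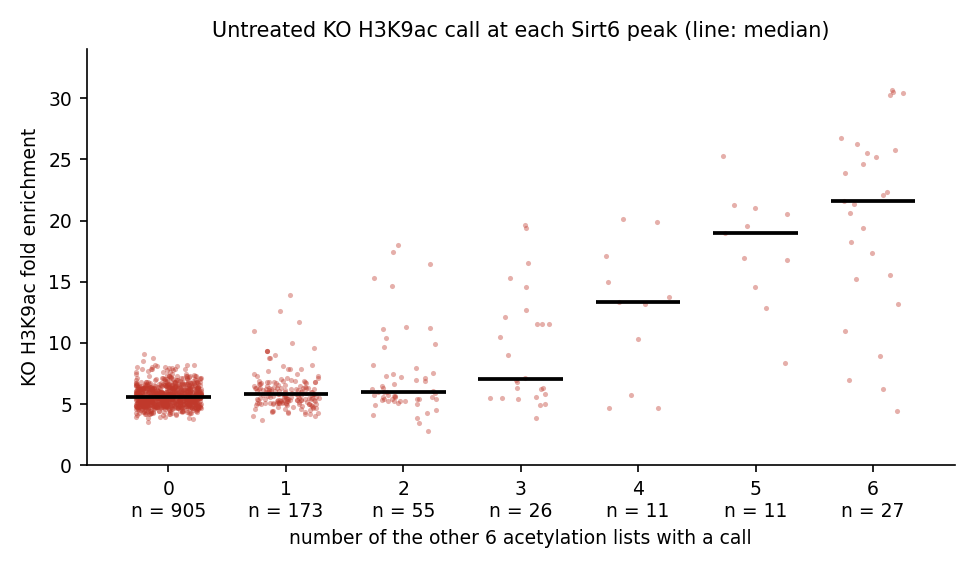
KO H3K9ac fold enrichment of each KO-only site (y axis) by the number of the other 6 acetylation lists that called it (x axis), with the median of each class. Medians were 5.59 at 905 sites in 0 lists and 21.6 at 27 sites in all 6.

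The sites in all 6 lists also had a higher ratio of Sirt6 pileup to Sirt6 fold. This ratio is larger where the local background is larger, but it is not the background itself and also rises somewhat with pileup. Its median was 3.79 (2.56 to 5.43) at these 27 sites, against 1.21 (1.20 to 1.22) at sites in no other list and 12.5 (8.63 to 16.2) at shared sites. Median Sirt6 pileup was 57, 14 and 71 in the same order. Of the 27 sites, 7 lay on chromosome X, Y or unplaced and random contigs, against 6 of the 905 and 40 of the 141 shared sites. The part of local background in the calls was not tested.

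The 5 named sites with the most lists and the highest KO H3K9ac were called in KO and in WT in every pair of lists but the pair that chose them. On chromosome 6 from 15554243 to 15554507, Sirt6 was 5.04-fold and untreated KO H3K9ac 30.6-fold. H3K9ac after RA was 31.7-fold in KO and 28.6-fold in WT at that site. H3K56ac there was 31.6-fold in KO and 34.5-fold in WT after RA, and 31.7-fold in KO and 14.4-fold in WT untreated. The nearest untreated WT H3K9ac peak lay 2543 bp away.

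On chromosome 8 from 15442511 to 15442927, Sirt6 was 14.0-fold and untreated KO H3K9ac 30.5-fold. H3K9ac after RA was 27.0-fold in KO and 22.8-fold in WT, and untreated H3K56ac was 33.3-fold in KO and 21.2-fold in WT. Chromosome 3 from 113595534 to 113595767 had 3.89-fold Sirt6, 30.4-fold untreated KO H3K9ac, and H3K9ac after RA of 30.5-fold in KO and 27.4-fold in WT. Chromosome 8 from 42533849 to 42534078 had 4.31-fold Sirt6, 30.3-fold untreated KO H3K9ac, and H3K9ac after RA of 27.5-fold in KO and 24.3-fold in WT. The last lay on an unplaced contig of chromosome Y, from 6437373 to 6437620, with 26.8-fold untreated KO H3K9ac. At these sites untreated WT H3K56ac was called while untreated WT H3K9ac was not.

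Where a second list called a KO-only site, the folds of the lists ranked the sites in a similar order. Over the 223 sites in untreated KO H3K56ac, the median KO H3K56ac fold was 6.72 and the median KO H3K9ac fold 6.32, with Spearman's rho 0.82 across sites. H3K9ac was the higher of the pair at 80 of the 223. Over the 82 sites in KO RA H3K9ac, rho was 0.89 and the untreated fold was higher at 63. Both values come from the same position and, for H3K56ac, from the same labelled cells, and folds from different libraries are not on a common scale. Peaks at KO-only sites had a lower median fold than the other peaks of the list in untreated KO H3K56ac (6.72; 6.38 to 7.02, against 10.3), untreated WT H3K56ac (7.10; 6.48 to 8.08, against 11.5) and WT RA H3K56ac (8.30; 6.60 to 9.41, against 11.5). In the other 3 lists the interval held the median of the other peaks: 8.01 (6.31 to 10.8) against 10.7 in KO RA H3K9ac, 8.73 (7.27 to 11.1) against 10.9 in KO RA H3K56ac, and 11.02 (9.45 to 13.04) against 11.6 in WT RA H3K9ac.

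KO-only sites were next compared with H3K9ac called in KO alone away from Sirt6. The 1202 KO H3K9ac peaks at KO-only sites were set beside 847 KO H3K9ac peaks that overlapped neither a Sirt6 peak nor an untreated WT H3K9ac peak. The median fold was 5.66 at KO-only sites and 8.24 away from Sirt6. At least 1 of the other 6 lists called 24.7% of the peaks at KO-only sites, 73.4% of those away from Sirt6 and 68.3% of all 3593 KO H3K9ac peaks. Strength differed between the sets, with a median −log10 q of 6.40 at KO-only sites and 10.7 away from Sirt6. The comparison was therefore repeated within bins of the −log10 q of the KO H3K9ac peak. Inside a bin neither −log10 q nor fold was matched, so the bins control for strength only in part. Between 5 and 10, 19.3% of the peaks at KO-only sites (150 of 779) and 56.7% of those away from Sirt6 (220 of 388) were in another list, a difference of −37.4 points (−42.9 to −31.7). Between 10 and 20 the shares were 54.5% (60 of 110) and 89.0% (243 of 273), a difference of −34.5 points (−44.3 to −24.5). Below 5 the shares were 11.02% (28 of 254) and 10.3% (3 of 29), with an interval of the difference that crossed 0 (−15.7 to 8.77 points). At 20 and above nearly every peak of both sets was in another list (59 of 59 and 156 of 157), which leaves no room for a difference in this measure.

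The lists differed in this. KO H3K9ac after RA, which overlapped 56.2% of all untreated KO H3K9ac peaks, was called at 2.70% of peaks at KO-only sites and 33.8% of those away from Sirt6 for −log10 q between 5 and 10, and at 10.9% and 65.9% between 10 and 20. WT H3K9ac after RA, which overlapped 50.4% of all untreated KO H3K9ac peaks, was called at 0.257% at KO-only sites and 22.4% away from Sirt6 between 5 and 10. KO H3K56ac after RA (50.8% of all) was called at 2.31% and 29.9%, and WT H3K56ac after RA (47.7% of all) at 2.70% and 17.5%. Untreated KO H3K56ac, which overlapped 48.6%, differed less: 12.5% at KO-only sites and 24.5% away from Sirt6 between 5 and 10, and 40% and 47.6% between 10 and 20, where the interval of the difference crossed 0 (−18.1 to 3.40). Untreated WT H3K56ac (48.9% of all) was called at 4.62% of peaks at KO-only sites and 12.1% away from Sirt6 between 5 and 10, and at 15.5% and 31.1% between 10 and 20. At 20 and above the order was the opposite, with 69.5% at KO-only sites and 51.0% away from Sirt6, a difference of 18.5 points (3.74 to 31.4).

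At 20 and above, 3 of the 4 RA lists still differed. KO H3K9ac after RA was called at 79.7% of peaks at KO-only sites and 93.0% away from Sirt6, a difference of −13.3 points (−25.6 to −3.59). For WT H3K9ac after RA the difference was −32.2 points (−45.6 to −18.4), and for WT H3K56ac after RA −14.2 points (−27.6 to −2.32). For KO H3K56ac after RA its interval crossed 0 (−14.2 to 5.19 points).

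**Figure D4:**
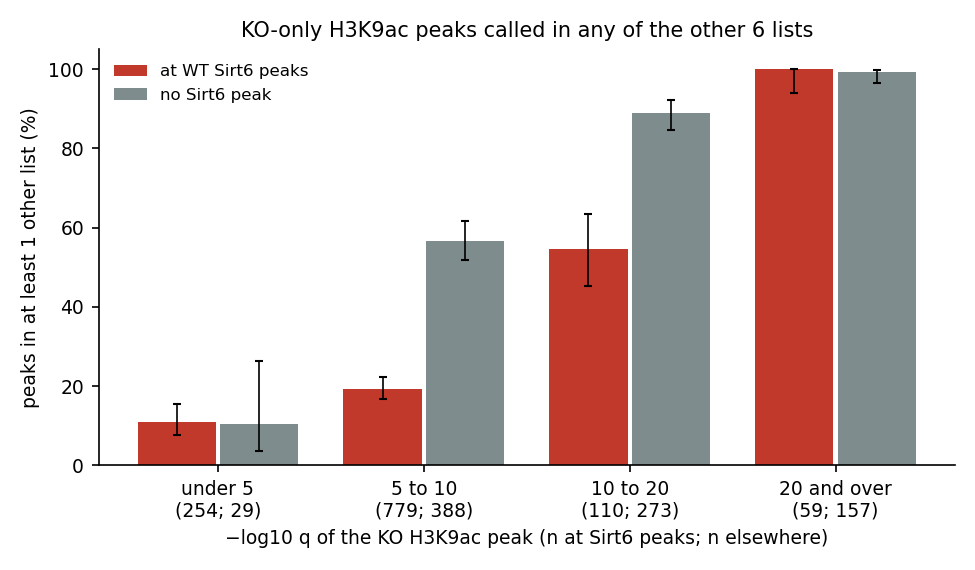
Share of untreated KO H3K9ac peaks called in at least 1 of the other 6 acetylation lists (y axis, percent, with 95% Wilson intervals) by −log10 q of the KO peak (x axis), for peaks at KO-only sites and for KO peaks away from Sirt6 and from WT H3K9ac. The shares were 19.3% at KO-only sites and 56.7% away from Sirt6 in the bin from 5 to 10, and close to 100% in both sets at 20 and above.

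KO-only sites lay on each of the 19 autosomes and on chromosomes X and Y. The share of a chromosome's Sirt6 peaks that were KO-only sites ran from 5.91% on chromosome 19 (30 of 508; 4.17 to 8.31) to 12.1% on chromosome 18 (46 of 381; 9.17 to 15.7) among the autosomes. Chromosomes 12 and 1 followed with 11.6% (67 of 577) and 10.5% (81 of 770), and chromosome X had 6.64% (17 of 256). Outside the autosomes lay 27 of the 1208 KO-only sites, against 248 of 13152 sites without H3K9ac and 40 of 141 shared sites. Of the 27, 21 were in at least 1 other acetylation list, against 25.1% of all KO-only sites. The share of other Sirt6 peaks outside the autosomes in those lists is not given here.

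They had Sirt6 neighbours less often than sites without H3K9ac. Another Sirt6 peak lay within 10000 bp of 531 KO-only sites (44.0%; 41.2 to 46.8), against 8122 sites without H3K9ac (61.8%), a difference of −17.8 points (−20.7 to −14.9), and 59.9% of all Sirt6 peaks had such a neighbour. Of the shared sites, 37 of 141 had one (26.2%; 19.7 to 34.1). Within 1000 bp the share was 36.9% at KO-only sites and 51.2% at all Sirt6 peaks, and within 100000 bp 82.7% and 88.2%. The same direction was found in each of the 5 groups by Sirt6 fold, with 51.6% of KO-only sites and 67.0% of sites without H3K9ac in group 1, and 47.8% and 58.0% in group 5. Among themselves, 1142 KO-only sites had no other within 10000 bp, 31 pairs were found, and 1 cluster held 4. That cluster lay on chromosome 9. Its sites ran from 44127553 to 44128275 (Sirt6 12.9-fold, KO H3K9ac 5.27-fold), 44135101 to 44135321 (5.45-fold and 6.58-fold), 44142863 to 44143835 (12.6-fold and 4.53-fold) and 44143867 to 44144203 (6.09-fold and 4.53-fold). The last pair shared 1 KO H3K9ac peak, and none of the 4 was called in another list.

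Finally, the sites were compared with 5hmC windows. The authors' deposited table lists 3780 windows of 500 bp with p under 0.001 between the KO and WT CMS-IP libraries, 2218 higher and 1562 lower in KO, and 139 of them have an adjusted p under 0.1. Windows that did not reach that p were not analysed here, so a site with no listed window nearby has no known 5hmC level. KO-only sites had windows higher in KO nearby less often than sites without H3K9ac. Within 10000 bp there were 37 such sites (3.06%; 2.23 to 4.19), against 672 sites without H3K9ac (5.11%; 4.75 to 5.50), a difference of −2.05 points (−2.97 to −0.859), and 4.89% of all Sirt6 peaks. The 37 sites lay near 41 windows and the 672 near 544, so neighbouring sites shared windows. Intervals for windows here and below take no account of such sharing. Sites without H3K9ac also had Sirt6 neighbours more often, and the part of this in the difference was not tested. Of the shared sites, 0 of 141 had a window higher in KO within 10000 bp, so that a share of up to 2.13% is possible at this number. Within 100000 bp, 1.42% of shared sites had one (0.390 to 5.02). Windows lower in KO were somewhat more frequent, near 29 KO-only sites (2.40%; 1.68 to 3.43), against 200 sites without H3K9ac (1.52%; 1.33 to 1.74), a difference of 0.880 points (0.122 to 1.92), 1.42% of shared sites (2 of 141; 0.390 to 5.02) and 1.59% of all Sirt6 peaks.

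Direct overlap was rare. A window higher in KO overlapped 2 KO-only sites (0.166%), against 55 sites without H3K9ac (0.418%) and 0.393% of all Sirt6 peaks, and the interval of the difference crossed 0 (−0.427 to 0.194 points). A window lower in KO overlapped 8 KO-only sites (0.662%; 0.336 to 1.30), against 18 sites without H3K9ac (0.137%) and 0.186% of all Sirt6 peaks, a difference of 0.525 points (0.190 to 1.17). Within 1000 bp, a window higher in KO was found for 9 KO-only sites (0.745%) and 1.28% of all Sirt6 peaks, and a window lower in KO for 11 KO-only sites (0.911%) and 0.289% of all Sirt6 peaks. Out to 100000 bp, 21.9% of KO-only sites and 25.2% of all Sirt6 peaks had a window higher in KO, and 9.69% of KO-only sites and 11.5% of all Sirt6 peaks a window lower in KO. The sign of the difference for lower windows thus turned with distance, at −2.02 points (−3.66 to −0.147) from sites without H3K9ac at 100000 bp.

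**Figure D5:**
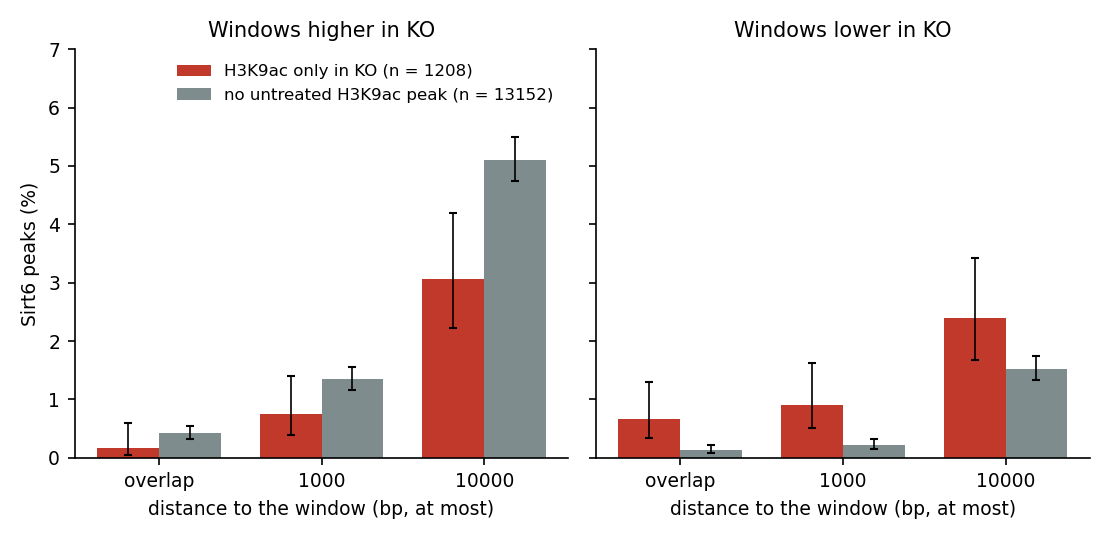
Share of KO-only sites and of sites without H3K9ac (y axis, percent, with 95% Wilson intervals) that had a CMS-IP window higher or lower in KO, by distance (x axis). Windows higher in KO were within 10000 bp of 3.06% of KO-only sites and 5.11% of sites without H3K9ac, and windows lower in KO within 10000 bp of 2.40% and 1.52%.

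Within the groups by Sirt6 fold, windows higher in KO were less frequent at KO-only sites in 4 of the 5 groups. For windows higher in KO within 10000 bp, the shares in the group of highest Sirt6 fold, group 5, were 2.49% of KO-only sites and 4.29% of sites without H3K9ac, and the interval of the difference reached 0 (−3.15 to 0.00372 points). Group 2 had 0.952% and 5.88%, a difference of −4.93 points (−6.15 to −0.606). In group 1 the difference was −4.32 points (−5.92 to 2.50) and in group 3 −1.41 points (−3.62 to 2.85). Group 4 had 4.75% and 4.12%, the opposite order, with an interval that crossed 0 (−1.40 to 3.65 points). For windows lower in KO the difference excluded 0 in group 2 (3.47 points; 0.716 to 9.39) and group 4 (1.64 points; 0.211 to 4.14), and not in the other 3.

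The read counts behind the windows set how far they can be read. In the 10 windows lower in KO that overlapped KO-only sites, the IP libraries held 195 reads in KO and 611 in WT, and the inputs 77 in KO and 102 in WT. The ratio of summed RPKM, KO over WT, was 0.376 in IP and 0.525 in input, so the input was lower in KO there too. For the 18 lower windows that overlapped sites without H3K9ac the ratio was 0.249 in IP and 0.585 in input. For the 3 windows higher in KO that overlapped KO-only sites it was 5.26 in IP and 0.611 in input. In the 41 windows higher in KO within 10000 bp of KO-only sites the ratio was 2.79 in IP and 0.972 in input. The part of the input difference in these windows was not tested.

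The 8 KO-only sites overlapped by a lower window had a median KO H3K9ac fold of 12.5, and 2 of them were in no other acetylation list. Those 2 each carried 2 neighbouring windows. On chromosome 6 the window from 129010001 to 129010500 had the lowest adjusted p of the 10 in the authors' deposited table, 4.64e-05, and 0 reads in the KO IP library, against 40 in the WT IP library. Input reads there were 2 in KO and 5 in WT, and the site had 7.50-fold KO H3K9ac. Its neighbour, from 129009501 to 129010000, had 2 IP reads in KO and 28 in WT.

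The other window with an adjusted p under 0.1 lay on chromosome 1 from 124669001 to 124669500, over a site with 13.4-fold KO H3K9ac that was in 4 other lists. In the authors' deposited table its log2 fold change (KO over WT) was −2.32 with an adjusted p of 0.00624. KO cells gave 12 IP and 9 input reads there, and WT cells 72 IP and 17 input reads. On chromosome 7 a window from 67495501 to 67496000 covered a site with 23.8-fold KO H3K9ac in all 6 other lists. The KO IP library had 1 read and the WT IP library 21. In the authors' deposited table its log2 value was −4.00 and its adjusted p 1.

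The site with the second pair of windows lay on chromosome 14. Its window from 107120501 to 107121000 had 16 reads in the KO IP library and 69 in the WT one, and that from 107121001 to 107121500 had 3 in KO and 29 in WT. The most IP reads were on chromosome 8, from 9358001 to 9358500, with 79 in KO and 156 in WT, and on chromosome 19, from 9828501 to 9829000, with 71 in KO and 144 in WT.

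The 37 KO-only sites near windows higher in KO had a median KO H3K9ac fold of 5.69, with 30 of them in no other acetylation list. The 3 overlapping windows fell on 2 sites. On chromosome 1, 2 neighbouring windows covered a site with 5.41-fold KO H3K9ac. The window from 74708501 to 74709000 had 34 IP and 36 input reads in KO and 3 IP and 38 input reads in WT. Its log2 value (KO over WT) was 3.69 in the authors' deposited table, and its adjusted p 0.0171. In the window from 74708001 to 74708500, KO cells gave 61 IP and 27 input reads and WT cells 18 IP and 40 input reads. Its log2 value was 2.00 in the authors' deposited table, and its adjusted p 0.119. The third, on chromosome 4 from 88368001 to 88368500, had 21 reads in the KO IP library and 5 in the WT IP library, and a log2 value of 2.29 in the authors' deposited table. Which genes lie at these sites was not analysed here, because the reference tables at hand are of another genome build.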

How the data were processed

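Per the file headers, the authors called ChIP-seq peaks library by library with MACS2, keeping a q of 0.01. The submitters' processing notes list BWA 0.5.9, Picard, MACS2 2.0.10, edgeR and the mm9 build. The Sirt6 lists had a whole-cell extract control and the acetylation lists none, per the file headers. Each deposited peak has a pileup (signal), a fold enrichment (ratio) and −log10 p and q. The deposited CMS-IP table holds read counts and RPKM for 500 bp windows, with the authors' edgeR log2 fold change, p-value and adjusted p-value. The aligner and the filters behind it are not given in the sources used here.

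Lists were intersected with Python 3.11.15, numpy 2.4.6, pandas 2.3.3 and scipy 1.17.1, counting an overlap from 1 bp, and the counting was tested on simulated data. Distances run between nearest edges. Groups came from the sample labels. All samples counted 17 in 17 groups of 1 library, so shares, differences and medians carry intervals and no test was made. The 5 and 10 equal groups by Sirt6 fold split tied values by file order. No deposited column of per-sample values was left unused (0). Regions are named where they had the 10 highest Sirt6 or KO H3K9ac folds, were in the most lists, lay just inside or outside the overlap rule, formed the largest cluster or touched a CMS-IP window. Of the regions meeting that rule, some are given by range. The sites, sets and measures were chosen with earlier results of these data known. Alternatives changed the −log10 q limit, the length of the lists, the overlap, the distance, the chromosomes, the exclusion zone round WT H3K9ac peaks and the limit on adjusted p. Holding KO peaks to the lowest −log10 q of the WT list was chosen after seeing the data.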

Additional observations from a re-analysis of the deposited data

How the results depend on the processing

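Requiring a −log10 q of 10 in both H3K9ac lists left 175 KO-only sites, with shares of 61.1% in untreated KO H3K56ac, 35.4% in untreated WT H3K56ac, 36% in KO RA H3K9ac, 22.3% in WT RA H3K9ac, 47.4% in KO RA H3K56ac and 35.4% in WT RA H3K56ac. Their median Sirt6 length was 340 bp and summit distance 36 bp, 31.4% had another Sirt6 peak within 10000 bp, and 1.71% and 4.57% had a CMS-IP window higher and lower in KO. Requiring it in the KO list alone left 170 sites, with shares in the same order of lists of 60%, 33.5%, 34.7%, 20.6%, 45.9% and 34.1%. Their median Sirt6 fold was 11.3, length 355.5 bp and summit distance 37.5 bp, 32.4% had a Sirt6 neighbour, and 1.76% and 4.71% a window higher and lower in KO. H3K9ac lists of equal length left 547 sites, with shares of 29.98%, 13.7%, 12.8%, 6.40%, 16.1% and 12.6%, a median length of 539 bp, a summit distance of 59 bp and 41.1% with a Sirt6 neighbour. A −log10 q of 10 in the Sirt6 list (938 sites) gave a median fold of 12.1, a length of 621 bp and 21.1% with a Sirt6 neighbour. On autosomes alone the WT RA H3K9ac share was 2.20%. At 1000 bp and 100000 bp the share with a Sirt6 neighbour was 36.9% and 82.7%, with a window higher in KO 0.745% and 21.9%, and with a window lower in KO 0.911% and 9.69%. Windows with an adjusted p under 0.1 lay within 10000 bp of 0.166% of sites in each direction. In these settings the sites themselves, the list of neighbours or the distance changed by construction. Of the 106 recomputed values, the other 59 stayed within the counting interval of the reported value or, for the number of sites, within 1.5 times of it. Overlap of 50% of the shorter peak left 1164 sites, no WT H3K9ac peak within 1000 bp 1204, autosomes 1181, and the WT list's lowest −log10 q 1174. No paired analysis was possible because each group held 1 library. Weak KO H3K9ac peaks rest on shallow libraries called without a control. A call missing from another list shows that no peak was called there, not that the mark was absent. The KO RA H3K9ac library was deeper, with 10250030 tags, than the untreated KO H3K9ac library, with 7217855. The part of depth in missing calls was not tested.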
